A study of Mus musculus with 27 samples.

Results

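Morulae treated with TSA were compared with morulae treated with SAHA, using the 6 libraries whose column headers name these treatments, 3 of each, out of 27 libraries in the series, and all 55369 rows of the count table. TSA was given at 50 nM and SAHA at 500 nM, so the doses were not matched and compound and dose cannot be told apart in any value below. The embryos were wildtype mouse embryos in KSOM medium that received an inhibitor or Vehicle at embryonic day 2.5 and were collected as morulae at E2.75. Each library was made from the polyadenylated RNA of a pool of 15 to 20 embryos with a low-input kit that amplifies cDNA, and the series text calls the replicates biological. Neither the strain nor the content of the Vehicle is stated in these sources. Vehicle libraries (n = 3) give the level without inhibitor, and 3 libraries treated with 10 uM A485, an inhibitor of the acetyltransferases p300 and CBP, enter the filter on low counts, the scaling and the estimate of the spread, but no comparison.

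Histone deacetylases remove acetyl groups from histone tails, work largely inside corepressor complexes, and keep many genes and retroelements at low expression. TSA, or trichostatin A, and SAHA, suberoylanilide hydroxamic acid or vorinostat, are both hydroxamic acids, whose end group binds the zinc ion in the active site of these enzymes. TSA carries a dimethylaniline cap on an unsaturated linker with a ketone, and SAHA carries an anilide cap on a saturated chain. The morula is the stage at which blastomeres compact, become polarised and begin to separate trophectoderm from inner cell mass.

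Column totals were 8894471, 10543681 and 9428881 counts for SAHA 1 to 3 and 7633990, 8131954 and 8374642 for TSA 1 to 3, so the TSA libraries were the shallower group. All levels below are CPM, counts scaled to a common column total. Of 15 morula genes, 14 could be tested, and their summed level was 3297, 3300.4 and 3194 CPM with SAHA, 2400.3, 2387 and 2322 CPM with TSA and 6983, 5994 and 6131 CPM with Vehicle. Sox2 had no count in these 9 libraries. Cumulus and granulosa genes summed to 300.0 to 415 CPM with SAHA and 147 to 282 CPM with TSA, nearly all of it from Gja1 and Serpine2, while Amh, Inhba and Ptgs2 had no count in the 6 libraries. Sperm genes summed to 60.7 to 68.8 CPM and 47.2 to 64.2 CPM. Blood, muscle and connective tissue genes summed to 38.9 to 42.6 CPM and 66.8 to 82.9 CPM. Hba-a1, an alpha globin gene, made the main difference, at 3.15, 3.6 and 4.03 CPM with SAHA and 37.9, 16.1 and 22.7 CPM with TSA. Genes with at least 10 counts, after thinning every library to 7557591 counts, numbered 15350, 15202 and 15176 with SAHA and 16504, 16030 and 16020 with TSA (two-sided exact permutation test, p = 0.1, the smallest that 3 against 3 allows). The mitochondrially encoded share was 2.06%, 1.61% and 2.15% with SAHA and 3.53%, 2.48% and 3.24% with TSA (p = 0.1 by the same exact permutation test), beside 1.20%, 1.03% and 0.997% with Vehicle. The 11 tested protein genes of the mitochondrial genome had a median log2 difference of 0.76, and 4 of them were higher with TSA (36.4%, against 9.79% of all genes tested). Of those 4, mt-Cytb, cytochrome b, was at 3088, 1911 and 4095 CPM with SAHA and 8174, 5491 and 9455 CPM with TSA (log2 difference 1.42 ± 0.26, adjusted p = 0.00204).

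Of 18299 genes tested, 3983 (21.8%) differed between TSA and SAHA at an adjusted p under 0.05 in edgeR's quasi-likelihood test with Benjamini-Hochberg adjustment, 1791 higher with TSA (9.79%) and 2192 lower (12%). A log2 difference is TSA minus SAHA throughout, given with ± its standard error, and its median over all genes tested was 0.05. The difference was at least 2-fold for 2444 genes, 1343 higher and 1101 lower, and at least 4-fold for 473 higher and 207 lower. The levels of the 2 groups did not overlap for 8395 genes (45.9%). Against the same Vehicle libraries, 10640 genes (58.1%) passed with TSA and 6262 (34.2%) with SAHA. Without SAHA replicate 2 the count fell to 2411, and without TSA replicate 1 to 2602. With the size factors of DESeq2 in place of edgeR's TMM scaling, 2251 genes were higher and 1706 lower, and the median over all genes was 0.16, so 56.9% of the differences were higher with TSA in place of 45.0%. For 4868 genes (26.6%) the 95% interval of the difference lay within 2-fold in both directions, and 4534 of these did not pass the test.

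**Figure D1:**
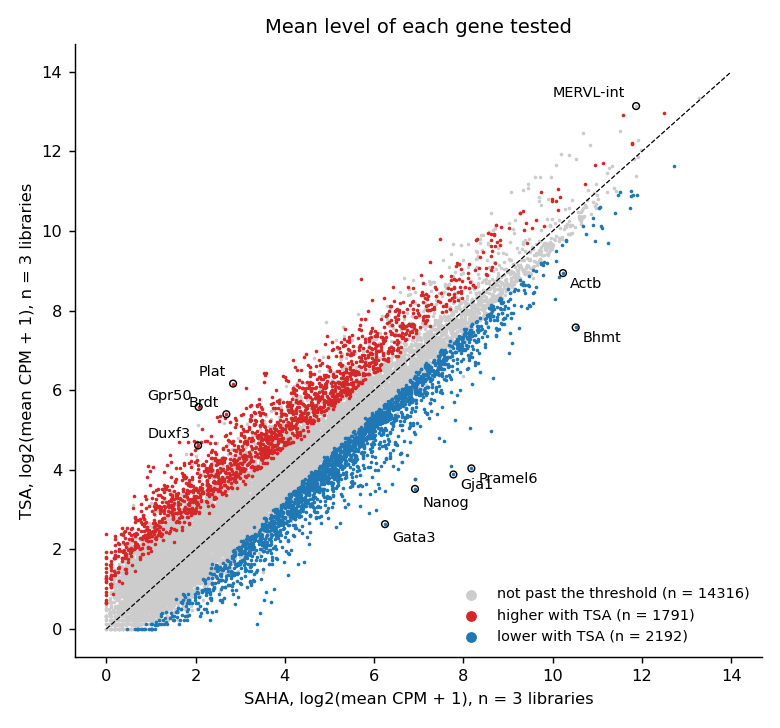
Mean level of each of the 18299 genes tested, as log2(mean CPM + 1), with SAHA on the horizontal axis and TSA on the vertical axis (n = 3 libraries each). Points above the dashed line of equal level were higher with TSA; red and blue points passed the test (1791 higher, 2192 lower) and grey points did not (14316), MERVL-int among them.

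The largest differences were taken among named genes that passed the test, had a mean of at least 10 CPM in the higher group and did not overlap between groups. Those with the largest TSA excess were low with SAHA and with Vehicle, at 10 CPM or less. Gpr50, which encodes an orphan receptor related to the melatonin receptors (chrX:71663667-71669257, GRCm38), stood at 4.05, 3.41 and 2.12 CPM with SAHA and 57.6, 42.3 and 40.4 CPM with TSA, beside 0, 0.182 and 0.382 CPM with Vehicle. Both treated groups were above Vehicle, and the TSA libraries were far above the SAHA libraries (log2 difference 3.95 ± 0.38, adjusted p = 2.72e-05). Plat, tissue plasminogen activator (chr8:22757727-22782844, GRCm38), was at 9.99, 6.02 and 8.61 CPM with Vehicle, 3.6, 8.73 and 6.15 CPM with SAHA and 52.1, 80.2 and 80.003 CPM with TSA. Here SAHA and Vehicle libraries overlapped and the TSA group stood alone (log2 difference 3.61 ± 0.38, adjusted p = 4.88e-05). Irf1, a transcription factor of the interferon response, was at 1.57, 1.33 and 2.33 CPM with SAHA and 15.7, 18 and 18.4 CPM with TSA (log2 difference 3.39 ± 0.41, adjusted p = 0.000133). Id1, which encodes an inhibitor of basic helix-loop-helix factors and is a target of BMP signalling, was at 2.7, 1.71 and 3.18 CPM with SAHA and 33.3, 28.8 and 12.7 CPM with TSA (log2 difference 3.37 ± 0.49, adjusted p = 0.00046). The TSA 3 library was the lowest of its group for Id1, yet above every SAHA library.

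Tmem179, Enpp2, Msx3, Igha, Tmeff2, Hba-a2 and Zmat4 were also among the 12 highest differences in genes of at least 10 CPM. Enpp2, which encodes the secreted enzyme autotaxin, went from 1.57, 0.759 and 0.848 CPM with SAHA to 16.8, 7.13 and 23.4 CPM with TSA (log2 difference 3.98 ± 0.60, adjusted p = 0.000564). Msx3, a homeobox gene of the dorsal neural tube, was at 1.8, 1.9 and 2.55 CPM with SAHA and 30.1, 12.8 and 31.3 CPM with TSA (log2 difference 3.65 ± 0.69, adjusted p = 0.0025). These genes had groups that did not overlap, as the choice required, and TSA 2 was the lowest TSA library for Tmem179, Enpp2, Msx3 and Hba-a2. Hba-a1 and Hba-a2 are near-identical copies, so the counting could have split reads between them.

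By the same choice, the largest differences in the other direction were, apart from Ppp1r18, in genes that the Vehicle embryos expressed at more than 50 CPM. Pramel6 and Pramel7 belong to the Prame family and are active in preimplantation embryos and naive embryonic stem cells. Pramel6 (chr2:87506565-87510872, GRCm38) was at 393, 467 and 423 CPM with Vehicle, 229, 342 and 295 CPM with SAHA and 9.69, 22.6 and 13.9 CPM with TSA. All SAHA libraries were below Vehicle without passing the test (log2 change -0.56, adjusted p = 0.225), and the TSA libraries were far below both (log2 difference -4.14 ± 0.40, adjusted p = 2.72e-05). Pramel7 fell with both inhibitors and further with TSA, from 179, 198 and 170.2 CPM to 53.6, 71.1 and 70.5 CPM with SAHA and 7.6, 6.76 and 6.57 CPM with TSA (log2 difference -3.14 ± 0.18, adjusted p = 8.7e-07). Bhmt, betaine-homocysteine methyltransferase, was among the most abundant, at 1301, 1725 and 1362 CPM with SAHA and 92.5, 343 and 134 CPM with TSA (log2 difference -2.85 ± 0.46, adjusted p = 0.000904). Its SAHA and Vehicle libraries overlapped, the latter at 1208, 1585 and 1458 CPM. Ly6a, a cell surface protein also called Sca-1, behaved alike, at 302, 189 and 337 CPM with Vehicle, 332, 493 and 349.8 CPM with SAHA and 34.6, 36.6 and 19.6 CPM with TSA (log2 difference -3.60 ± 0.33, adjusted p = 2.27e-05).

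Tk1 and Gja1 fell in both groups, by different amounts. Tk1, the thymidine kinase that supplies dTTP in S phase, was at 349.5, 335 and 321 CPM with Vehicle, 105, 136 and 117 CPM with SAHA and 12.1, 17.2 and 8.84 CPM with TSA (log2 difference -3.14 ± 0.23, adjusted p = 2.84e-06). Gja1, the gap junction protein connexin 43, was at 498, 596 and 628 CPM with Vehicle, 236, 244 and 175 CPM with SAHA and 8.12, 12.8 and 20.3 CPM with TSA (log2 difference -3.89 ± 0.39, adjusted p = 3.52e-05). No library of one inhibitor reached the range of the other for either gene. Camk1, Tmbim1, Ppp1r18, Dppa1, Gata3 and Nanog complete the 12 lowest, with log2 differences from -3.89 for Ppp1r18 to -3.05 for Tmbim1.

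MERVL, the endogenous retrovirus whose transcription marks the 2-cell stage, was higher in every TSA library than in any SAHA library. The MERVL-int row held 4495, 2176 and 4547 CPM in SAHA 1 to 3 and 9644, 8320 and 9108 CPM in TSA 1 to 3, a ratio of means of 2.41 (two-sided exact permutation test, p = 0.1, the smallest possible). MERVL_2A-int held 183, 87.5 and 169 CPM with SAHA and 363, 311 and 322 CPM with TSA, a ratio of 2.26 (p = 0.1 by the same permutation test). SAHA 2 was the lowest library of its group for both rows. Vehicle 1 and 2 had 12.5 and 14.3 CPM of MERVL-int, but Vehicle 3 had 244 CPM. In the edgeR fit, MERVL_2A-int passed (log2 difference 1.25 ± 0.29, adjusted p = 0.00815) and MERVL-int did not (log2 difference 1.34 ± 0.81, adjusted p = 0.25). Without Vehicle replicate 3 in the fit, an alternative chosen after seeing the data, the MERVL-int difference was almost the same size, 1.33, and passed with adjusted p = 0.00469. It also passed with only the 2 groups compared in the fit (adjusted p = 0.00493), with limma-voom and with no filter.

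The 39 genes of the 2-cell stage around Dux and Zscan4 followed MERVL. Their summed level was 17237, 10594 and 20072 CPM with SAHA and 40735, 40146 and 47499.6 CPM with TSA, beside 104, 128 and 1128 CPM with Vehicle. The groups did not overlap, and again SAHA 2 was lowest and Vehicle 3 stood apart. Of 37 members tested, 5 were higher with TSA and 1 was lower, with a median log2 difference of 1.42 against 0.05 for all genes. The share called higher, 13.5%, was near the 9.79% of all genes. Without Vehicle replicate 3 the higher members numbered 34 of 38, with only the 2 groups in the fit 34, with limma-voom 34 and with no filter 35. Leaving out any TSA library, SAHA replicate 1 or SAHA replicate 2 gave 3, the replicate block 9, halved counts 10 and the fit to all 27 libraries 2. Duxf3, the Dux gene copy that the annotation holds and a transcription factor that activates MERVL, had no count with Vehicle, 3.15, 3.03 and 3.29 CPM with SAHA and 16.2, 34.6 and 19.5 CPM with TSA (log2 difference 2.97 ± 0.40, adjusted p = 0.000842). Spz1 was at 37.4, 30.6 and 51.2 CPM with SAHA and 249, 139 and 169 CPM with TSA (log2 difference 2.30 ± 0.46, adjusted p = 0.00467). The exception was Zfp600, a zinc finger gene, which was at 32, 34.2 and 26 CPM with Vehicle, 53.6, 55.2 and 51.6 CPM with SAHA and 24.9, 21.2 and 21.4 CPM with TSA (log2 difference -1.17 ± 0.19, adjusted p = 0.00085). Dux, Zscan4, Usp17l and Tdpoz genes are multicopy families with near-identical copies, so levels of single copies are uncertain.

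**Figure D2:**
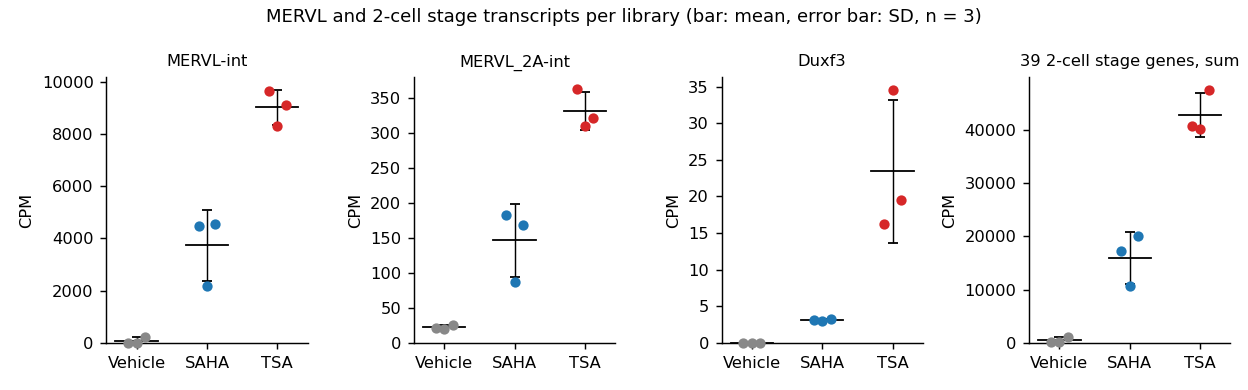
CPM of MERVL-int, MERVL_2A-int, Duxf3 and the sum of 39 genes of the 2-cell stage in each Vehicle, SAHA and TSA library. Dots are libraries, horizontal bars means and error bars SD (n = 3); each TSA library lies above each SAHA library in all 4 panels, and SAHA 2 is the lowest SAHA library in the MERVL panels.

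Transcripts of the deacetylases that the inhibitors bind were called at shares near those of all genes. Of the 11 zinc-dependent genes, 9 passed the filter on low counts, 1 was higher with TSA (Hdac6) and 1 lower (Hdac4). These shares, 11.1% each way, stood beside 9.79% higher and 12% lower over all genes. The median log2 difference of the 9 genes was 0.09. Hdac1, a class I enzyme of several corepressor complexes, was at 445, 526 and 458 CPM with SAHA and 456, 480.1 and 495 CPM with TSA, and the 95% interval of its log2 difference ran from -0.20 to 0.38. Hdac2 and Hdac3 overlapped too, with intervals from -0.03 to 0.72 and from -0.55 to 0.14, although Hdac2 passed with the DESeq2 test (adjusted p = 0.0444). Hdac6, the tubulin deacetylase, was at 28.1, 23.7 and 20.6 CPM with SAHA and 38.2, 37.6 and 33 CPM with TSA (log2 difference 0.67 ± 0.23, adjusted p = 0.0468). Hdac4, a class IIa enzyme, was at 8.99, 7.02 and 5.3 CPM with SAHA and 4.45, 1.48 and 2.15 CPM with TSA (log2 difference -1.32 ± 0.43, adjusted p = 0.0419). The call of Hdac6 was lost without any 1 of the 6 libraries and in 4 other alternatives, and that of Hdac4 without TSA replicate 2 or 3 or any SAHA library and in 2 others. Hdac9 was at 0.377, 0.547 and 12 CPM with Vehicle, 101, 58.5 and 96.6 CPM with SAHA and 220.5, 171 and 176 CPM with TSA and did not pass (log2 difference 1.22 ± 0.67, adjusted p = 0.205). As for MERVL-int, Vehicle 3 was high and SAHA 2 low within their groups, and Hdac9 passed without Vehicle replicate 3 (adjusted p = 0.00565), with limma-voom, with no filter and with only the 2 groups in the fit.

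Genes often raised by deacetylase inhibitors in cultured cells were mixed. Of 24 tested, 7 were higher with TSA (29.2%, against 9.79% of all genes) and 4 lower (16.7%, against 12%). Without TSA replicate 1 or without SAHA replicate 3, 4 were higher, and with a mean of at least 5 CPM required, 2 were lower. The median was 0.50, or 0.24 without TSA replicate 1. Clu, the secreted chaperone clusterin, was at 6.98, 3.28 and 3.06 CPM with Vehicle, 18.7, 29.8 and 20.2 CPM with SAHA and 56.9, 70.1 and 58.7 CPM with TSA (log2 difference 1.53 ± 0.29, adjusted p = 0.00256). Cdkn1a, the cell cycle inhibitor p21, was at 68.8, 114 and 114 CPM with Vehicle, 89.5, 113 and 62.8 CPM with SAHA and 155, 159 and 227 CPM with TSA (log2 difference 1.13 ± 0.28, adjusted p = 0.0119). Only the TSA libraries lay above the Vehicle range, and the call against SAHA was lost without TSA replicate 3 or SAHA replicate 3. Cdkn1c, the related inhibitor p57, was at 7.2, 9.1 and 11.9 CPM with SAHA and 71.8, 33.2 and 38.7 CPM with TSA (log2 difference 2.42 ± 0.56, adjusted p = 0.00723). H1f0, the linker histone H1.0, leaned the other way, at 53, 52.2 and 69.6 CPM with Vehicle, 532, 583 and 819.5 CPM with SAHA and 282, 357 and 549 CPM with TSA. Both groups were well above Vehicle, they overlapped, and the difference between them did not pass (log2 difference -0.62 ± 0.24, adjusted p = 0.0781), although it did without TSA replicate 3 (adjusted p = 0.0137), with library size alone, limma-voom, no filter and the replicate block. Glrx, glutaredoxin, was clearly lower with TSA (log2 difference -2.27 ± 0.25, adjusted p = 7.44e-05) and is described with the genes of opposite direction.

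More pluripotency genes were lower with TSA than higher. Of 39 tested, 15 were lower and 2 higher (1 higher without TSA replicate 2 or any SAHA library), with a median log2 difference of -0.76, or -0.37 without SAHA replicate 1. Over all genes, 12% were lower and 9.79% higher. Against Vehicle the list's median was -1.87 with TSA and -1.0 with SAHA. Nanog, a homeobox factor of the epiblast (chr6:122707489-122714633, GRCm38), was at 113, 188 and 196 CPM with Vehicle, 164, 125 and 69.6 CPM with SAHA and 13.2, 7.87 and 10.3 CPM with TSA. SAHA and Vehicle libraries overlapped, and the TSA libraries lay below both (log2 difference -3.43 ± 0.35, adjusted p = 3.98e-05). Dppa4, a chromatin protein of pluripotent cells, showed the same pattern, at 299, 370.2 and 318 CPM with Vehicle, 305, 323 and 334 CPM with SAHA and 98.8, 119 and 86.1 CPM with TSA (log2 difference -1.58 ± 0.18, adjusted p = 0.000108). Pou5f1, which encodes OCT4 and was named after its values were seen, was at 84.7, 107 and 72.7 CPM with Vehicle, 54, 48 and 29.9 CPM with SAHA and 10.3, 16.5 and 8.96 CPM with TSA (log2 difference -1.79 ± 0.30, adjusted p = 0.00122). Its 3 groups did not overlap. In pools of whole embryos, fewer cells of a type and less RNA per cell cannot be told apart.

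Trophectoderm genes were split. Of 50 tested, 19 were lower with TSA (38%, against 12% of all genes) and 8 higher (16%, against 9.79%), and the median was -0.53. Gata3, a trophectoderm transcription factor (chr2:9857078-9890034, GRCm38), went from 343, 299 and 303 CPM with Vehicle to 68, 85.5 and 70.6 CPM with SAHA and 4.45, 6.15 and 5.02 CPM with TSA (log2 difference -3.75 ± 0.26, adjusted p = 1.82e-06). Tead4, the Hippo pathway factor upstream of it, was at 92.9, 109 and 81.8 CPM with Vehicle, 38.5, 32.2 and 29.4 CPM with SAHA and 11.8, 20.4 and 10.7 CPM with TSA (log2 difference -1.13 ± 0.25, adjusted p = 0.00606). Cldn7, a claudin of epithelial tight junctions, was at 308, 351 and 335 CPM with Vehicle, 161, 153 and 146 CPM with SAHA and 49.8, 41.1 and 40.8 CPM with TSA (log2 difference -1.72 ± 0.14, adjusted p = 1.09e-05). In these 3 genes SAHA lay between Vehicle and TSA with no overlap. Aqp9, a glycerol and water channel, ran the other way, from 73.2, 86.2 and 89.4 CPM with Vehicle to 314, 290.3 and 341 CPM with SAHA and 886, 968 and 834 CPM with TSA (log2 difference 1.59 ± 0.15, adjusted p = 2.72e-05). Eomes, named after its values were seen, was also higher with TSA at a low level, 2.7, 3.41 and 2.76 CPM with SAHA and 9.96, 8.36 and 6.93 CPM with TSA (log2 difference 1.59 ± 0.32, adjusted p = 0.0032). Cdx2, named likewise, was at 12.9, 15 and 9.94 CPM with Vehicle, 2.7, 2.28 and 1.48 CPM with SAHA and 0.262, 0 and 0.239 CPM with TSA (log2 difference -3.52 ± 0.67, adjusted p = 0.00333).

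Of 22 primitive endoderm genes tested, 5 were lower with TSA (22.7%, against 12% of all genes) and 1 higher (4.55%, against 9.79%). The median was -0.22, or from -0.13 to -0.10 without 1 SAHA library. In the fit to all 27 libraries 8 were lower. Without TSA replicate 1 or 2 or SAHA replicate 1 or 3, 0 were higher. Gata6, the transcription factor that opposes NANOG in the inner cell mass, was at 116, 139 and 103 CPM with Vehicle, 46.5, 30.1 and 26.9 CPM with SAHA and 5.24, 2.95 and 6.45 CPM with TSA (log2 difference -2.73 ± 0.40, adjusted p = 0.000461). Lrp2, the endocytic receptor megalin, was at 344, 308 and 332 CPM with Vehicle, 272, 278 and 265 CPM with SAHA and 72.6, 113 and 89.1 CPM with TSA (log2 difference -1.48 ± 0.18, adjusted p = 0.000133). In both genes SAHA lay between the other groups, nearer to TSA for Gata6 on the CPM scale and nearer to Vehicle for Lrp2. Of 40 growth factor ligand genes, 9 were higher (22.5%) and 2 lower (5%) with TSA. The median was 0.38, or from 0.60 to 0.73 without TSA replicate 2 or 3, any SAHA library or Vehicle replicate 3. With a mean of at least 5 CPM required it was -0.050. Without SAHA replicate 2, 2 were higher, and without SAHA replicate 3, 3 were higher and 4 lower. Gdf3, a ligand of the TGF-beta family, was at 42.2, 47.8 and 42.3 CPM with Vehicle, 13, 13.5 and 9.76 CPM with SAHA and 1.83, 1.97 and 3.1 CPM with TSA (log2 difference -2.29 ± 0.47, adjusted p = 0.00417). Hbegf, a ligand of the epidermal growth factor receptor, was at 11.9, 3.28 and 6.5 CPM with Vehicle, 4.27, 4.93 and 6.79 CPM with SAHA and 32.2, 42.5 and 39.9 CPM with TSA (log2 difference 2.92 ± 0.39, adjusted p = 0.000287). Kitl, the ligand of the receptor KIT and also a granulosa cell gene, was at 0, 0.182 and 0.765 CPM with Vehicle, 1.12, 0.569 and 1.7 CPM with SAHA and 6.29, 7.38 and 9.79 CPM with TSA (log2 difference 2.86 ± 0.70, adjusted p = 0.0101). Gdf3 was thus lower with TSA, and Hbegf and Kitl were higher.

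**Figure D3:**
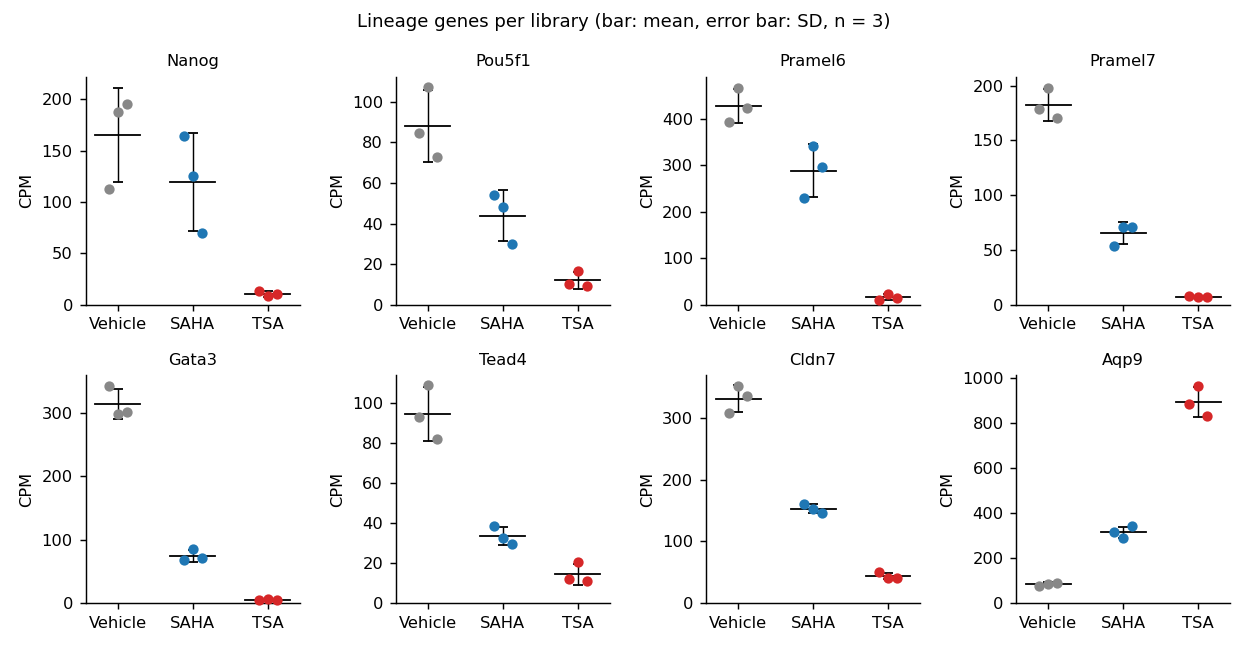
CPM of 8 lineage genes in each Vehicle, SAHA and TSA library; dots are libraries, bars means and error bars SD (n = 3). The TSA libraries were below all others for each gene but Aqp9: SAHA overlapped Vehicle for Nanog, while Pou5f1, Pramel6, Pramel7, Gata3, Tead4 and Cldn7 stepped down from Vehicle to SAHA to TSA without overlap and Aqp9 stepped up.

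Compaction and polarity genes were lower with TSA in 11 of 33 members (33.3%, against 12% of all genes) and higher in none (1 with the DESeq2 test), with a median of -0.44. Crb3, an apical polarity protein, was at 72, 77.7 and 73.1 CPM with Vehicle, 41.4, 30.2 and 27.2 CPM with SAHA and 6.81, 9.35 and 7.88 CPM with TSA (log2 difference -1.95 ± 0.23, adjusted p = 0.000115). Rdx, the membrane and actin linker radixin, was at 101, 92 and 81.8 CPM with Vehicle, 36, 43.6 and 43.5 CPM with SAHA and 16.8, 14 and 19.3 CPM with TSA (log2 difference -1.21 ± 0.17, adjusted p = 0.000384). Both stepped down from Vehicle to SAHA to TSA without overlap. Actb, beta actin, which is also a subunit of SWI/SNF remodellers, did the same at a far higher level, 2868, 2604 and 2361 CPM with Vehicle, 1444, 1194 and 966 CPM with SAHA and 487, 489 and 498 CPM with TSA (log2 difference -1.20 ± 0.15, adjusted p = 0.000146). Cdh1, E-cadherin, the adhesion molecule of compaction, was at 207, 185 and 171 CPM with SAHA and 128, 147 and 116 CPM with TSA, and it was named after its values were seen. These 2 groups did not overlap and the difference did not pass (log2 difference -0.44 ± 0.16, adjusted p = 0.0602), although it did without TSA replicate 2 (adjusted p = 0.049), with library size alone, limma-voom, the replicate block and only the 2 groups in the fit.

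Many germline genes are kept silent in somatic cells by DNA methylation of their promoters. Of 41 tested, 13 were higher (31.7%, against 9.79% of all genes) and 1 was lower (2.44%, against 12%), with a median of 0.80. The list's medians against Vehicle were 2.15 with TSA and 1.17 with SAHA. The higher members numbered 8 without TSA replicate 2 or without SAHA replicate 2, and 21 with limma-voom. Promoters of germline genes often carry the E-box CACGTG, which the repressor pair MGA and MAX binds. These 6 letters, which read the same on both strands, were found in 14 of the 36 germline promoters at hand (38.9%), in 9.65% of promoters of all protein-coding genes tested and in 7.24% of all promoters in the table, each a window of 250 bases before to 50 after the start. Brdt, Sycp3 and Tdrd9, 3 of the members higher with TSA that hold it, are shown over the 250 bases before the start on the gene's own strand, with the E-box in capitals (RefSeq, GRCm38.p6). The windows are chr5:107330944-107331193 on the plus strand for Brdt, chr10:88459337-88459586 on the plus strand for Sycp3 and chr12:111971309-111971558 on the plus strand for Tdrd9.
Brdt: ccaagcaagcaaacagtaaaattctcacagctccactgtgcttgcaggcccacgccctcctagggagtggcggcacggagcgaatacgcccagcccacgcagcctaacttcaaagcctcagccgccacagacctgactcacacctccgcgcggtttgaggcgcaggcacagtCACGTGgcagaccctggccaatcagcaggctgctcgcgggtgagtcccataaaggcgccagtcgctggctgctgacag
Sycp3: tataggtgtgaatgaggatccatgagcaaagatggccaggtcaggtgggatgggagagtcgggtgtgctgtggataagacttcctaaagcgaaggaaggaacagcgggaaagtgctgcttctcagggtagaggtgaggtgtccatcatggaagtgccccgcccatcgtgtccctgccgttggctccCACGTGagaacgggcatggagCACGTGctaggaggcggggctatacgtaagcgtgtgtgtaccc
Tdrd9: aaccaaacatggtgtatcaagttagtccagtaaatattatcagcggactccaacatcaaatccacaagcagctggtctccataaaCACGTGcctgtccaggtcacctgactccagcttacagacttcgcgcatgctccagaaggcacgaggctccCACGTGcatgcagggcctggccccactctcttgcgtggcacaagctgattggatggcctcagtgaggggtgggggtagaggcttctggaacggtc
The E-box lies 78 bases before the start of Brdt, 64 and 43 before that of Sycp3 and 165 and 95 before that of Tdrd9. Over all protein-coding genes called, the E-box was in 13.6% of the promoters of genes lower with TSA and in 8.87% of those of genes higher with it. A match is a description of the letters and not evidence of binding.

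Brdt, a bromodomain protein of the testis that reads acetylated histones, was at 2.45, 4.38 and 4.78 CPM with Vehicle, 2.47, 6.45 and 7.42 CPM with SAHA and 51.3, 35.4 and 36.5 CPM with TSA. SAHA overlapped Vehicle and the TSA libraries lay above both (log2 difference 2.99 ± 0.40, adjusted p = 0.000257). Sycp3, a protein of the synaptonemal complex of meiosis, was already well expressed, at 239, 278 and 199 CPM with Vehicle, 358, 399 and 474 CPM with SAHA and 1100.3, 810.3 and 1026 CPM with TSA (log2 difference 1.34 ± 0.18, adjusted p = 0.000308). Tex15, a factor of the piRNA pathway, was at 3.02, 3.47 and 3.63 CPM with Vehicle, 24.5, 34 and 20.2 CPM with SAHA and 107, 103 and 114 CPM with TSA (log2 difference 2.14 ± 0.32, adjusted p = 0.00056). It rose from Vehicle in both groups, and the groups did not overlap.

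Of the list's 48 neuronal genes, 15 did not pass the filter on low counts. Of the 33 tested, 11 were higher (33.3%, against 9.79% of all genes) and none lower, with a median of 1.03. The count was 4 without TSA replicate 1, 5 without TSA replicate 3, 7 without SAHA replicate 1 and 6 without SAHA replicate 2 or 3. Elavl3, a neuronal RNA-binding protein, was at 0.754, 0.547 and 0.956 CPM with Vehicle, 2.92, 3.22 and 3.18 CPM with SAHA and 23.8, 17.5 and 26.6 CPM with TSA (log2 difference 2.95 ± 0.43, adjusted p = 0.0005). Stmn2, a microtubule regulator of growing axons, was at 0, 0.182 and 0.191 CPM with Vehicle, 0.675, 2.66 and 1.27 CPM with SAHA and 15.2, 7.62 and 8.36 CPM with TSA (log2 difference 2.83 ± 0.60, adjusted p = 0.00599). Ncam1, the neural cell adhesion molecule, was at 0.45, 0.759 and 0.212 CPM with SAHA, overlapping Vehicle (0.377, 0.365 and 0 CPM), and at 5.5, 4.67 and 3.82 CPM with TSA (log2 difference 3.35 ± 0.84, adjusted p = 0.0114).

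Some genes moved away from Vehicle in opposite directions with the 2 inhibitors. Tent5c, a poly(A) polymerase, was at 12.4, 34.9 and 24.1 CPM with Vehicle, 13.9, 11.4 and 6.58 CPM with SAHA and 88.8, 61.7 and 106 CPM with TSA. SAHA overlapped Vehicle in 1 library. Log2 changes from Vehicle were 1.94 with TSA (adjusted p = 0.000618) and -1.16 with SAHA (adjusted p = 0.0326). Mbnl3, a splicing regulator, was at 20.2, 23 and 17.6 CPM with Vehicle, 9.22, 8.73 and 12.3 CPM with SAHA and 38.5, 52.6 and 48 CPM with TSA, with changes of 1.30 with TSA (adjusted p = 0.00025) and -0.99 with SAHA (adjusted p = 0.00496). The 3 groups of Mbnl3 did not overlap. Mapre2, a protein of growing microtubule ends, was at 37.7, 39.3 and 32.5 CPM with Vehicle, 18.9, 20.3 and 24.4 CPM with SAHA and 52.7, 63.7 and 59.2 CPM with TSA, with changes of 0.78 with TSA (adjusted p = 0.00709) and -0.77 with SAHA (adjusted p = 0.0155). Fam178b, Fahd1 and Supt20, a subunit of the SAGA coactivator, complete the 6 genes named by rule. They came out of 9 genes called higher than Vehicle with TSA and lower with SAHA, beside 18299 genes tested. The rule also required a call in TSA against SAHA and a mean of at least 10 CPM in 1 group, and left out unnamed gene models.

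In the reverse set, SAHA was above and TSA below Vehicle. Glrx was at 265, 194 and 211 CPM with Vehicle, 315, 415 and 477 CPM with SAHA and 68.9, 64.7 and 102 CPM with TSA, with changes of 0.87 with SAHA (adjusted p = 0.0118) and -1.40 with TSA (adjusted p = 0.000213). Fcgrt, the neonatal Fc receptor, was at 17.7, 32.7 and 30.4 CPM with Vehicle, 60.7, 135 and 52.8 CPM with SAHA and 9.17, 14.3 and 10.7 CPM with TSA, with SAHA 2 the highest library (1.61 with SAHA, adjusted p = 0.00438, and -1.14 with TSA, adjusted p = 0.0201). Zfp978, a zinc finger gene, was at 33.4, 37.2 and 32.2 CPM with Vehicle, 61.2, 51.7 and 56 CPM with SAHA and 17.2, 19.06 and 22.6 CPM with TSA (0.73 with SAHA, adjusted p = 0.015, and -0.70 with TSA, adjusted p = 0.0115). Trir, Fbxo28 and Rab5if complete the 6 named by the same rule, out of 10 such genes. Both comparisons rest on the same 3 Vehicle libraries, so a Vehicle level that is off by chance shifts both of a gene's changes the same way.

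**Figure D4:**
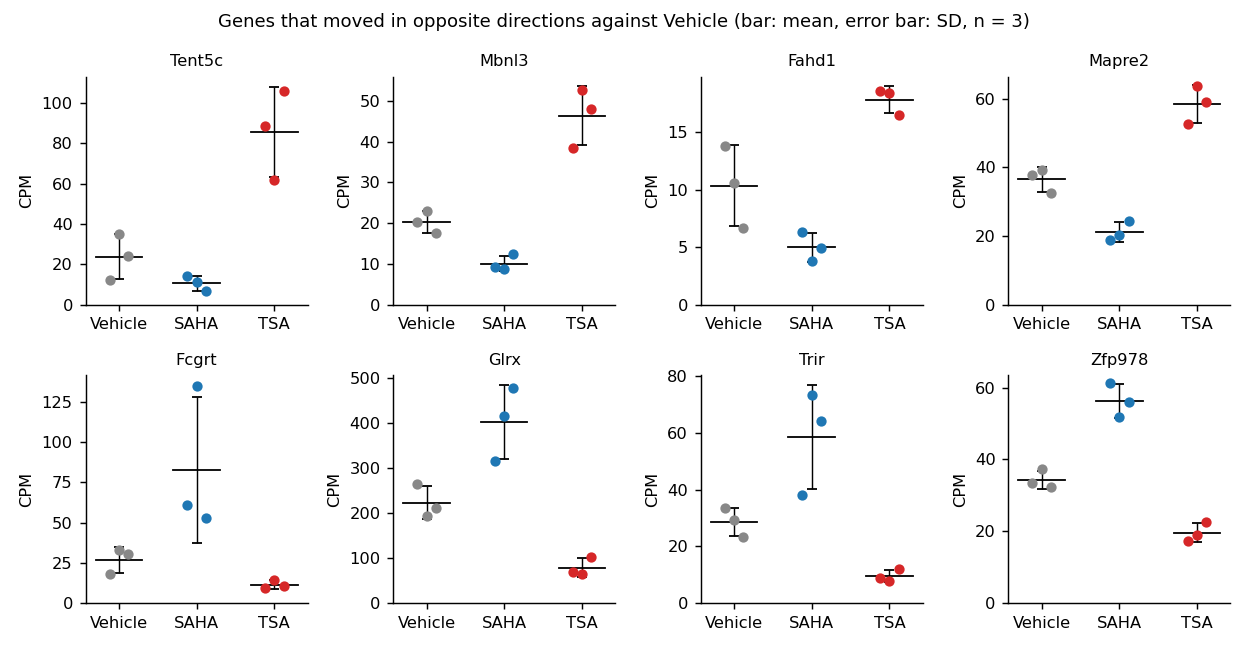
CPM of 8 genes in each Vehicle, SAHA and TSA library; dots are libraries, bars means and error bars SD (n = 3). Tent5c, Mbnl3, Fahd1 and Mapre2 were above Vehicle with TSA and below it with SAHA, and Fcgrt, Glrx, Trir and Zfp978 the reverse.

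Other genes changed at least 4-fold from Vehicle with both inhibitors and had the smallest standard errors of the difference between them. Gss, glutathione synthetase, was at 189, 177 and 189 CPM with Vehicle, 40.6, 53.7 and 38.8 CPM with SAHA and 45.6, 33.9 and 36.3 CPM with TSA, and the 95% interval of TSA minus SAHA ran from -0.47 to 0.24. Ctr9, a subunit of the PAF1 elongation complex, was at 31.9, 32.9 and 38.3 CPM with Vehicle, 154, 170.0 and 222 CPM with SAHA and 203, 248 and 218 CPM with TSA, with an interval from 0.01 to 0.74. Folr1, the folate receptor alpha, was at 448, 561 and 488 CPM with Vehicle, 127, 106 and 112 CPM with SAHA and 77.8, 101 and 80.003 CPM with TSA, with an interval from -0.68 to 0.02. None of these 3 differences passed the test, although that of Ctr9 did without SAHA replicate 3 (adjusted p = 0.0438), with the DESeq2 test (adjusted p = 0.0388) and with a mean of at least 5 CPM (adjusted p = 0.0400), and Gss and Ctr9 overlapped between the groups. Each interval leaves out a 2-fold difference, but none shows that the levels were equal. Dcbld1, Zfp809 and Rbbp6, chosen by the same rule, were higher with TSA. Rbbp6, a ubiquitin ligase, was at 38.6, 39.2 and 47.2 CPM with Vehicle, 221, 172 and 206 CPM with SAHA and 379.7, 412 and 347 CPM with TSA (log2 difference 1.01 ± 0.16, adjusted p = 0.000996).

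Replication-dependent histone genes, whose transcripts normally lack a poly(A) tail, were far above Vehicle in both groups. Of 56 tested, none was higher and none lower with TSA than with SAHA by edgeR, beside 9.79% and 12% over all genes. At an unadjusted p under 0.05, 1 differed, and 1 was higher with the DESeq2 test or with limma-voom. The list's medians against Vehicle were 3.39 with TSA and 3.32 with SAHA, and the median of TSA minus SAHA was -0.12, or 0.09 without SAHA replicate 1. H4c9, the most abundant member, was at 5.84, 4.2 and 8.41 CPM with Vehicle, 96.6, 20.4 and 96.4 CPM with SAHA and 69.4, 85.7 and 58.5 CPM with TSA. SAHA 2 was low, as for MERVL, and the 95% interval of the H4c9 difference was wide, from -0.85 to 0.98. Of 12 variant histone genes, 2 were higher (16.7%) and 1 lower (8.33%), with a median of 0.19 (1 higher without any 1 of the 6 libraries, and 2 lower without TSA replicate 3). H2az1, the variant H2A.Z, was at 2194, 2159.7 and 2335 CPM with SAHA and 3674, 2980.0 and 3475 CPM with TSA (log2 difference 0.68 ± 0.13, adjusted p = 0.00252). Macroh2a1, a variant of silent chromatin, was at 69.7, 61.5 and 69.6 CPM with SAHA and 17, 16.5 and 11.7 CPM with TSA (log2 difference -2.07 ± 0.27, adjusted p = 0.000218).

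S phase genes were lower with TSA in 20 of 47 members (42.6%, against 12% of all genes) and higher in none, with a median of -0.40. There were 13 lower without SAHA replicate 2, 2 higher without TSA replicate 2 and up to 4 higher with limma-voom. Mcm3, a subunit of the replicative helicase, was at 104, 118 and 102 CPM with Vehicle, 97.1, 102 and 85.3 CPM with SAHA and 40.3, 32.5 and 28.9 CPM with TSA (log2 difference -1.40 ± 0.19, adjusted p = 0.000302). SAHA 2 was within the Vehicle range, SAHA 1 and 3 lay below it, and the TSA libraries lay farther below. Rrm1, the large subunit of ribonucleotide reductase, was at 228, 227 and 243 CPM with Vehicle, 102, 137 and 123.5 CPM with SAHA and 42.2, 54.4 and 44.7 CPM with TSA (log2 difference -1.27 ± 0.23, adjusted p = 0.00184). Genes of G2 and M phase were lower in 4 (8%) and higher in 3 (6%) of 50 members, below the 12% and 9.79% of all genes, with a median of -0.04. The lower members numbered 12 with library size alone, 2 without TSA replicate 1 or SAHA replicate 1 and 7 without TSA replicate 3, and the higher ones up to 8 with limma-voom. Ccna2, cyclin A2, was higher with TSA (396, 394 and 459 CPM with SAHA and 888, 756 and 739 CPM with TSA, log2 difference 1.01 ± 0.17, adjusted p = 0.001). Birc5, the mitotic protein survivin, was lower (768, 893 and 715 CPM with SAHA and 497, 565 and 474 CPM with TSA, log2 difference -0.54 ± 0.12, adjusted p = 0.00758).

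Of 76 mitochondrial ribosomal protein genes tested, 39 were lower with TSA (51.3%, against 12% of all genes) and none higher, with a median of -0.53. Mrps34 was at 205, 205 and 225 CPM with Vehicle, 120.1, 125 and 115 CPM with SAHA and 21.7, 35.7 and 29.3 CPM with TSA (log2 difference -1.96 ± 0.18, adjusted p = 2.24e-05). Mrpl12 was at 394, 369 and 336 CPM with Vehicle, 239, 266 and 216 CPM with SAHA and 78.3, 97.6 and 84.5 CPM with TSA (log2 difference -1.38 ± 0.15, adjusted p = 6.92e-05). Both stepped down from Vehicle to SAHA to TSA. Mrpl24 was at 294, 232 and 249.6 CPM with Vehicle, 259.9, 224 and 206 CPM with SAHA, overlapping, and 87, 106 and 82.2 CPM with TSA (log2 difference -1.24 ± 0.16, adjusted p = 0.000194). The mitochondrially encoded transcripts went the other way, as given above. Ribosome biogenesis and RNA polymerase I genes were lower in 16 of 48 members (33.3%) and higher in none (2 with the DESeq2 test), with a median of -0.34. Ubtf, the polymerase I factor UBF, was at 36.9, 41 and 39.2 CPM with SAHA and 8.65, 10.3 and 6.45 CPM with TSA (log2 difference -2.12 ± 0.28, adjusted p = 0.000219). Nuclear respiratory chain genes were lower in 15 (18.3%) and higher in 3 (3.66%) of 82, with a median of -0.16 (23 lower with library size alone or limma-voom, and 0 higher without SAHA replicate 2 and 1 without TSA replicate 1, SAHA replicate 1 or SAHA replicate 3). In 85 cytosolic ribosomal protein genes the difference was negative for 79 and positive for 6, with a median of -0.25. Of these genes, 12 were called lower (14.1%, near the 12% of all genes) and 1 higher (1.18%, below the 9.79% of all genes). The lower ones ran from 3 with DESeq2 size factors to 33 with limma-voom (4 without TSA replicate 3 or SAHA replicate 1, 7 without SAHA replicate 3), and the higher one was lost without any TSA library, SAHA replicate 2 or SAHA replicate 3.

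Promoters of the genes lower with TSA held the letters of an ETS factor motif more often than those of the genes higher with TSA. The ETS family motif CCGGAAGT, searched on both strands, was in 13.0% of the promoters of genes lower with TSA, in 4.34% of those of genes higher with TSA and in 7.85% of those of all protein-coding genes tested. Over the whole promoter table it was in 4.0%. The CCAAT box, CCAAT on either strand, had the reverse order, 33.0%, 49.4% and 39.4%. Other motifs were searched as well, some with little difference. The GC box, GGGCGG, was in 62.4% of promoters of lower genes and 64.5% of those of higher genes. The shares were 5.47% and 9.04% for the TATA box, TATAAA, and 13.6% and 8.87% for the E-box. Mitochondrial ribosomal protein genes held the ETS motif in 10 of 66 promoters (15.2%), and 2 of these that were lower with TSA, Mrpl43 and Mrpl51, are shown as above with the motif in capitals (RefSeq, GRCm38.p6). The windows are chr19:45006443-45006692 on the minus strand for Mrpl43 and chr6:125191950-125192199 on the plus strand for Mrpl51.
Mrpl43: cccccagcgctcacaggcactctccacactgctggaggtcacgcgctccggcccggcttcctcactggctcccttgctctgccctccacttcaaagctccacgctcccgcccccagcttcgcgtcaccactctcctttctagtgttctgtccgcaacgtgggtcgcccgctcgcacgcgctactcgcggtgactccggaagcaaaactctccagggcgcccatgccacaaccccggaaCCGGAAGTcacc
Mrpl51: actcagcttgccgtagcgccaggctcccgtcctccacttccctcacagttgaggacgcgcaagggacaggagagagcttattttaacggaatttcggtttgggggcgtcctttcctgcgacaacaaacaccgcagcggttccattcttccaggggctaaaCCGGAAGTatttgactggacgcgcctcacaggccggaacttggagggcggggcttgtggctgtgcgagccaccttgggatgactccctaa
These shares describe letters in a window and compare genes that also differ in length and level.

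Genes lower with TSA were shorter than genes higher with it. The median span from first to last annotated base (GENCODE vM21) was 15.0 kb for the lower genes, 28.2 kb for the higher ones and 20.1 kb for all genes tested. Protein-coding genes were divided into 5 equal groups by span. In the shortest group, up to 8.50 kb, 20.6% were lower and 8.98% higher with TSA. In the longest group, from 75.9 kb, 7.27% were lower and 14.2% higher. The median log2 difference was -0.18 in the shortest group and 0.31 in the longest.

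Sterol and fatty acid synthesis genes were higher with TSA in 13 of 33 members (39.4%, against 9.79% of all genes) and lower in 2 (6.06%, against 12%), with a median of 0.65. The count of higher members was 7 without TSA replicate 1, 8 without SAHA replicate 1 or 2 and 5 without SAHA replicate 3, and only 1 member was lower without TSA replicate 1 or 3 or SAHA replicate 1 or 3. Sc5d, a late enzyme of cholesterol synthesis, was at 22.8, 22.3 and 27.9 CPM with Vehicle, 15.5, 25.6 and 21.8 CPM with SAHA, overlapping, and 66.3, 44.5 and 74 CPM with TSA (log2 difference 1.64 ± 0.27, adjusted p = 0.00107). Insig1, the feedback inhibitor of the sterol sensor, was at 19.6, 25.4 and 23.9 CPM with Vehicle, 21.4, 13.8 and 23.8 CPM with SAHA and 50.4, 48 and 51.6 CPM with TSA (log2 difference 1.42 ± 0.25, adjusted p = 0.00166). Elovl6, a fatty acid elongase, was lower, at 426, 406 and 384 CPM with Vehicle, 189, 192 and 163 CPM with SAHA and 44.3, 55.3 and 40.1 CPM with TSA (log2 difference -1.87 ± 0.15, adjusted p = 8.36e-06). Glycolysis and pyruvate genes were higher in 10 (31.25%) and lower in 4 (12.5%) of 32, with a median of 0.26 (2 lower without SAHA replicate 2, 7 with limma-voom). Ldhb, a lactate dehydrogenase subunit, was at 2.26, 2.19 and 1.15 CPM with Vehicle, 20.7, 39.8 and 44.5 CPM with SAHA and 138, 97.9 and 165 CPM with TSA (log2 difference 2.02 ± 0.31, adjusted p = 0.000645). Pdk1, which inhibits pyruvate dehydrogenase, was below Vehicle with SAHA and above it with TSA, at 3.96, 4.38 and 3.44 CPM with Vehicle, 1.57, 1.33 and 2.33 CPM with SAHA and 11, 5.66 and 9.31 CPM with TSA (log2 difference 2.38 ± 0.38, adjusted p = 0.000874).

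Stress and death genes were mixed. Of 25 heat shock chaperone genes, 5 were higher (20%, against 9.79% of all genes) and 8 lower (32%, against 12%) with TSA. Their median was -0.07 (5 lower without TSA replicate 1). Dnajb1, a cytosolic cochaperone, was at 73.7, 109 and 106 CPM with Vehicle, 109, 138 and 149 CPM with SAHA and 376, 479.8 and 577 CPM with TSA (log2 difference 1.94 ± 0.23, adjusted p = 0.000109). Hspd1, the mitochondrial chaperonin HSP60, was at 812, 710.1 and 766 CPM with Vehicle, 297, 350.1 and 323 CPM with SAHA and 100.1, 132 and 135 CPM with TSA (log2 difference -1.31 ± 0.16, adjusted p = 0.00015). The cytosolic gene was higher and the mitochondrial one lower with TSA. Of 30 p53 target genes, 7 were higher (23.3%) and 3 lower (10%), with a median of -0.09 (3 higher without SAHA replicate 1, 4 without TSA replicate 3 or SAHA replicate 3). Btg2, an antiproliferative gene, was at 80.3, 124 and 95.9 CPM with SAHA and 234, 230.0 and 231 CPM with TSA (log2 difference 1.30 ± 0.17, adjusted p = 0.000231). Sfn, 14-3-3 sigma, was at 497, 607 and 537 CPM with SAHA and 132, 162 and 139 CPM with TSA (log2 difference -1.83 ± 0.16, adjusted p = 1.89e-05). Of 28 apoptosis regulators, 9 were lower (32.1%) and 3 higher (10.7%), with a median of -0.44, or -0.17 without SAHA replicate 2 (5 higher in 5 alternatives, DESeq2 and limma-voom among them). Bcl2l11, the proapoptotic protein BIM, was at 20.9, 22 and 18 CPM with SAHA and 71.5, 64.9 and 59.5 CPM with TSA (log2 difference 1.77 ± 0.24, adjusted p = 0.000264). Bax, which permeabilises mitochondria, was at 71.8, 102 and 89.1 CPM with SAHA and 12.7, 33.6 and 29.1 CPM with TSA (log2 difference -1.71 ± 0.29, adjusted p = 0.00116).

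Lists of chromatin regulators, apart from the NAD-dependent deacetylases, held members called in both directions, beside 9.79% higher and 12% lower over all genes. With DESeq2 size factors, corepressor subunits were nearly even, 6 higher and 7 lower, as were factors that silence retroelements, 10 higher and 11 lower. Of 26 bromodomain and elongation factors, 5 were higher and 5 lower (as few as 3 higher without TSA replicate 1 and 2 lower without SAHA replicate 2), and of 7 NAD-dependent deacetylases, the sirtuins, 2 were higher and none lower (1 higher without TSA replicate 2 or 3 or SAHA replicate 1 or 3). Of 40 corepressor subunits, 10 were lower and 4 higher, with a median of -0.32 (5 lower without SAHA replicate 2, 6 without SAHA replicate 3, and 7 higher with the DESeq2 test or a mean of at least 5 CPM). Mta3, of the NuRD complex, was at 182, 198 and 198 CPM with Vehicle, 60.5, 75.7 and 54.1 CPM with SAHA and 27, 22.6 and 28.4 CPM with TSA (log2 difference -1.19 ± 0.16, adjusted p = 0.000262). Arid4a, of the SIN3 complex, was at 39.2, 35.8 and 47.2 CPM with Vehicle, 166, 93.5 and 167 CPM with SAHA and 409, 315 and 301 CPM with TSA (log2 difference 1.34 ± 0.24, adjusted p = 0.00176). Mta3 was thus lower and Arid4a higher with TSA. Of 44 acetyltransferase complex genes, 10 were lower and 3 higher, with a median of -0.21, or -0.12 without TSA replicate 3 (6 higher with the DESeq2 test or a mean of at least 5 CPM). Supt3, a subunit of SAGA, was at 20.9, 29.9 and 25.4 CPM with Vehicle, 41.9, 26.9 and 39.983 CPM with SAHA and 141, 75.3 and 83.6 CPM with TSA (log2 difference 1.54 ± 0.25, adjusted p = 0.00108). Of 45 Mediator and RNA polymerase II genes, 12 were lower and 3 higher, with a median of -0.15 (6 higher with the DESeq2 test or a mean of at least 5 CPM). Med18, of the Mediator head, was at 23.8, 22.3 and 23.5 CPM with Vehicle, 24.8, 23.5 and 15.7 CPM with SAHA and 6.03, 8.12 and 8.36 CPM with TSA (log2 difference -1.41 ± 0.24, adjusted p = 0.00116). Of 27 SWI/SNF subunits, 8 were lower and 1 higher, with a median of -0.40, or -0.12 without SAHA replicate 1 (0 higher without TSA replicate 3 or SAHA replicate 2). Arid1a, a DNA-binding subunit, was at 92.9, 103 and 76.9 CPM with Vehicle, 34.5, 35.6 and 24.4 CPM with SAHA and 10.2, 7.87 and 8.12 CPM with TSA (log2 difference -1.76 ± 0.28, adjusted p = 0.000873). Of 40 factors that silence retroelements, 12 were lower and 7 higher, with a median of -0.20 (2 higher without SAHA replicate 2, 3 without SAHA replicate 1 and 4 without SAHA replicate 3). Atrx, a remodeller of silent chromatin, was at 292, 233 and 244 CPM with Vehicle, 222, 178 and 179 CPM with SAHA and 100.5, 107 and 93.9 CPM with TSA (log2 difference -0.86 ± 0.16, adjusted p = 0.00219). Zfp809, a zinc finger repressor of retroviruses, was at 40.7, 48.3 and 40.3 CPM with Vehicle, 287, 230.0 and 304 CPM with SAHA and 408, 524 and 418 CPM with TSA (log2 difference 0.80 ± 0.16, adjusted p = 0.0038). Atrx was lower and Zfp809 higher with TSA, with SAHA between TSA and Vehicle in both. Of 43 DNA methylation and Polycomb genes, 9 were lower and 2 higher, with a median of -0.15, or -0.32 without TSA replicate 3, -0.25 without SAHA replicate 1, -0.075 without TSA replicate 2 and 0.0099 without SAHA replicate 2 (5 lower without SAHA replicate 1, and 1 higher without TSA replicate 2, SAHA replicate 2 or SAHA replicate 3). Tet2, an oxidase of 5-methylcytosine, was at 133, 126 and 122 CPM with Vehicle, 28.3, 24.8 and 21.2 CPM with SAHA and 8.65, 4.18 and 5.13 CPM with TSA (log2 difference -1.97 ± 0.23, adjusted p = 0.000125), with no overlap of the 3 groups. Pcgf5, a Polycomb subunit, was at 14.9, 25 and 21.7 CPM with Vehicle, 46.4, 39.5 and 78.5 CPM with SAHA and 297, 163 and 195 CPM with TSA (log2 difference 2.06 ± 0.33, adjusted p = 0.000889), again with SAHA in between.

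**Figure D5:**
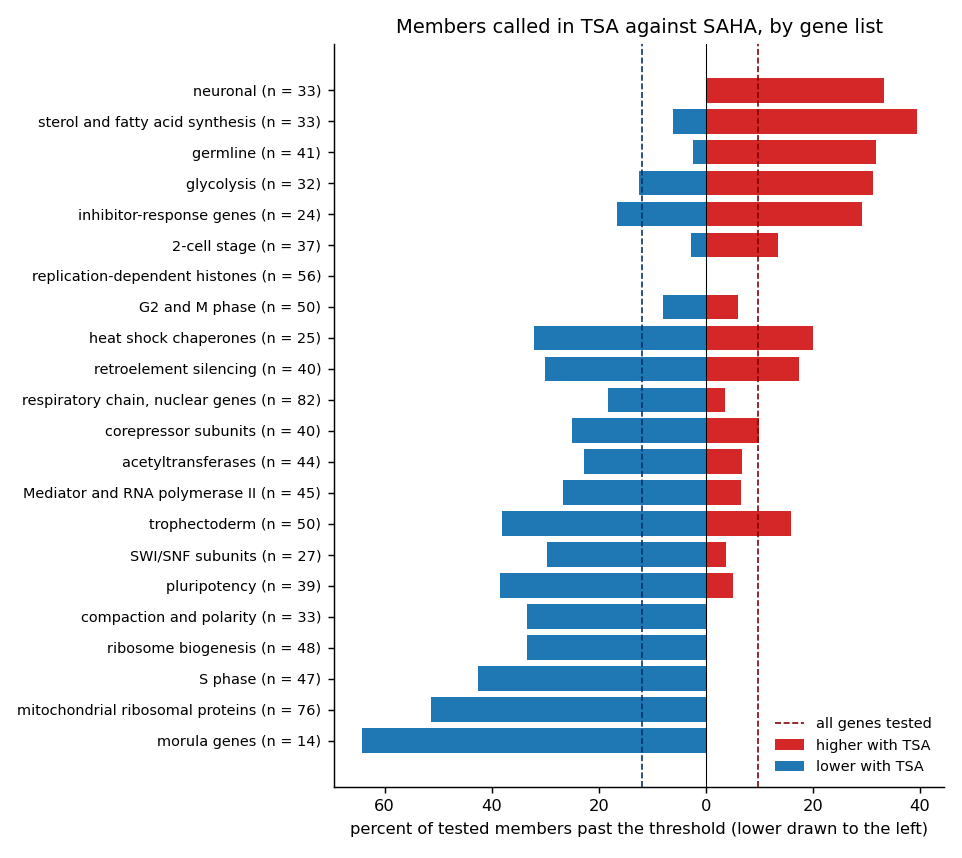
Percent of the tested members of 22 gene lists that were higher (red, to the right) or lower (blue, to the left) with TSA than with SAHA, with n the members tested. Dashed lines mark the shares over all genes tested, 9.79% higher and 12% lower; morula genes and mitochondrial ribosomal proteins reach farthest to the left, and sterol and fatty acid synthesis genes farthest to the right. Of the 14 morula genes, 9 were lower (64.3%) and none higher. Some genes are in more than 1 list, such as Gata3 among morula and trophectoderm genes, so bars can count the same gene again.

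Interferon and double-stranded RNA sensing genes were higher with TSA in 3 (13.6%, near the 9.79% of all genes) and lower in 1 of 22 members, with a median of 0.73, or 0.30 without TSA replicate 1 (7 higher with the DESeq2 test or limma-voom). Cxcl10, an interferon-induced chemokine, was at 0, 0.182 and 0.382 CPM with Vehicle, 1.12, 1.61 and 1.7 CPM with SAHA and 17, 7.62 and 7.16 CPM with TSA (log2 difference 2.91 ± 0.63, adjusted p = 0.00541). Irf3, the factor that induces interferon, was at 28.8, 23.5 and 23.4 CPM with Vehicle, 15.3, 18.8 and 19.196 CPM with SAHA and 4.72, 8.12 and 4.42 CPM with TSA (log2 difference -1.54 ± 0.29, adjusted p = 0.00228). Irf1, given above, and Cxcl10 were thus higher with TSA, and Irf3 was lower. Imprinted genes were higher in 9 (26.5%) and lower in 3 (8.82%) of 34 members (5 higher without SAHA replicate 1 or 2, 7 lower with library size alone). Their median was 0.31, or 0.20 without SAHA replicate 1, 0.48 without TSA replicate 2 and 0.51 without SAHA replicate 3. With a mean of at least 5 CPM required it was -0.0024. Peg3, a paternally expressed zinc finger gene, was at 2.07, 6.02 and 3.06 CPM with Vehicle, 2.02, 2.09 and 2.97 CPM with SAHA and 15.7, 14 and 19.11 CPM with TSA (log2 difference 2.86 ± 0.38, adjusted p = 0.000262). Sfmbt2, a paternally expressed Polycomb gene of the placental lineage, was at 74.4, 59.5 and 56.8 CPM with Vehicle, 19, 19.5 and 9.12 CPM with SAHA and 2.62, 2.95 and 5.25 CPM with TSA (log2 difference -2.03 ± 0.31, adjusted p = 0.000591). For Peg3 the SAHA libraries overlapped Vehicle and TSA was above both, and for Sfmbt2 the groups stepped down without overlap.

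X-linked genes, a group looked at after the values were seen, leaned towards TSA. Of 628 tested, 102 (16.2%) were higher and 23 lower with TSA, against 1632 and 2148 of 17150 autosomal genes, and the medians were 0.40 and 0.03. The difference of these medians was from 0.286 (without TSA replicate 2) to 0.438 (without TSA replicate 3) over the alternatives. The higher X-linked genes numbered 61 without SAHA replicate 2, and the lower ones 8 without SAHA replicate 1, 14 without TSA replicate 1 or 3, 15 without SAHA replicate 2 and 36 without TSA replicate 2. The X-linked share of counts was 3.32%, 2.93% and 2.89% with SAHA and 3.32%, 3.95% and 3.12% with TSA, so these ranges overlapped. Xist, the RNA that coats the inactive X chromosome, was at 288, 270.2 and 142 CPM with Vehicle, 149.9, 79.2 and 34.4 CPM with SAHA and 12.3, 40.5 and 19 CPM with TSA (log2 difference -1.78 ± 0.56, adjusted p = 0.036). TSA 2 was above SAHA 3, and the call was lost without TSA replicate 1, TSA replicate 3, SAHA replicate 1 or SAHA replicate 2 and with the DESeq2 test. Tsix overlaps Xist on the other strand, and without strand information the reads of the pair cannot be told apart. The Y-linked genes Ddx3y and Eif2s3y were named after their values were seen. Ddx3y was at 23.6, 36.4 and 32.9 CPM with SAHA and 15.5, 6.39 and 22 CPM with TSA. Eif2s3y was at 81.2, 158 and 159.8 CPM with SAHA and 72.3, 19.18 and 101 CPM with TSA. Neither difference passed (adjusted p = 0.0692 and adjusted p = 0.133), although both did without TSA replicate 3 (adjusted p = 0.0246 and 0.0496) and with no filter. Ddx3y also passed without Vehicle replicate 3 (adjusted p = 0.0378), with library size alone, limma-voom and the replicate block. TSA 2 had the lowest level of both and the highest X-linked share. The sex makeup of the pools is not given in the sources used here, and its part in the X-linked values was not tested.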

How the data were processed

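Gene counts of 27 libraries were deposited by the authors as 1 table of whole-number counts per gene, with 2 rows for MERVL. The submitters' processing notes name STAR 2.7.11a, featureCounts, Subread 2.0.6 and the builds mm10 and GRCh38; the counting of the MERVL rows is not given in the sources used here. Between 83.3% and 84.8% of nonzero counts in the 9 Vehicle, SAHA and TSA libraries were even, so fits on halved counts were made as an alternative. Sample groups came from column headers and labels. Replicates differed beyond counting noise (chi-square per degree of freedom of 11.9 to 18.0), and no 2 libraries were treated as 1.

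CPM was computed from column totals of all rows. edgeR 4.0.16 in R 4.3.3 was fitted to the 12 inhibitor-family libraries (filterByExpr with a minimum count of 10, TMM, quasi-likelihood test, Benjamini-Hochberg threshold 0.05), which leaves 8 residual degrees of freedom, and was tested on simulated data. Alternatives were DESeq2 1.42.0 (test and size factors), limma 3.58.1 voom with sample weights, library size alone, other filters, other sets of libraries, halved counts, a replicate block and each library left out. Single values were compared by two-sided exact permutation tests that went through every split of the libraries, in Python 3.11.15. The p-values measure the spread between pools of embryos.

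The genes named are MERVL rows, Duxf3, H1f0, Cdkn1a and the deacetylases; the 12 highest and 12 lowest differences among named genes of at least 10 CPM whose groups did not overlap; in each list, the 4 or fewer members of lowest adjusted p (where no member passed, its best expressed one); up to 6 genes each way called in opposite directions against Vehicle; and up to 10 of the smallest standard error among genes changed at least 4-fold by both. The comparison, the lists and the rule were chosen with earlier results of these data known. Gene positions are from GENCODE vM21 (GRCm38), and 11109 of 13643 protein-coding genes tested (81.4%) matched a RefSeq promoter. 1 gene that the rule selects is not reported here.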

Additional observations from a re-analysis of the deposited data

How the results depend on the processing

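The number of genes that differed between TSA and SAHA lay between 2411 and 4315 when 1 library was left out, the higher value being that without Vehicle replicate 3, and was 2444 where at least a 2-fold difference was also required; the libraries whose loss moved it most are named in the report. The replicate numbers showed no pairing of TSA with SAHA libraries (correlations of same-numbered libraries were 0.043, -0.023 and 0.009). Same-numbered SAHA and Vehicle libraries were at -0.029, 0.138 and 0.154, and those of different number ran from -0.210 to 0.133. Same-numbered TSA and Vehicle libraries were at -0.021, 0.044 and 0.018. A fit with the replicate number as a block called 4084 genes, 3727 of them shared with the fit without it. Of all 3983 genes called, 2361 were still called without SAHA replicate 2 and 2470 without TSA replicate 1. Among the named genes given above with levels or a log2 difference, 90 passed the test. Many of these were chosen by a low adjusted p or a large difference in the same fit, so their stability does not stand for that of all genes. Cdx2, Cxcl10, Enpp2, Kitl, Ncam1, Stmn2, mt-Cytb and MERVL_2A-int had no adjusted p in at least 1 alternative. Of the 90, 85 passed in every alternative that gave them an adjusted p, with the same direction. The exceptions were Hdac4, Hdac6, Cdkn1a, Xist and Spz1, and Spz1 was lost with the DESeq2 test (adjusted p = 0.208) and in the fit to all 27 libraries (adjusted p = 0.0505). Some medians changed sign, and not all of these were near 0. With DESeq2 size factors, the DESeq2 test and a mean of at least 5 CPM, in that order, they were 0.018, 0.018 and 0.019 for p53 targets, 0.041, 0.041 and 0.033 for heat shock chaperones and 0.066, 0.066 and 0.050 for G2 and M phase genes, and Gss was at 0.0012, 5.5e-05 and 0.0025. A mean of at least 5 CPM also gave 0.24 for sirtuins in place of -0.13 and 0.074 for replication-dependent histones. It gave -0.0024 for imprinted genes in place of 0.31 and -0.050 for growth factor ligands in place of 0.38. Without a filter, primitive endoderm genes were at 0.019 and H4c9 at -0.0065, and halved counts gave 0.0049 for G2 and M phase genes. When 1 library was left out, zinc-dependent deacetylases ran from -0.15 (SAHA 2) to 0.088, sirtuins from -0.17 to 0.17 (SAHA 3), G2 and M phase genes from -0.16 to 0.059 (TSA 1), replication-dependent histones from -0.28 to 0.086 (SAHA 1) and p53 targets from -0.23 to 0.045 (TSA 2). DNA methylation and Polycomb genes ran from -0.32 to 0.0099 (SAHA 2), Gss from -0.24 to 0.0016 (SAHA 2) and H4c9 from -0.40 (SAHA 2) to 0.36. The cause of these changes was not tested. Levels of the MERVL rows were computed from the series table only, since the per-sample tables used here hold no such rows. With 3 libraries a group, the median standard error of a log2 difference was 0.38, so a 2-fold difference in a gene of low count was often not detectable.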
